A study of Mus musculus with 6 samples.

Results

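The genes of retinoic acid synthesis, breakdown and sensing were examined in single-nucleus RNA-seq of the rd10 mouse retina. The 10 genes were chosen by symbol from 32285 genes in the count tables. They were Aldh1a1, Aldh1a2 and Aldh1a3 for synthesis, Cyp26a1 and Cyp26b1 for breakdown, Rara, Rarb and Rxra as receptors, and Crabp1 and Crabp2 as carriers. UMIs, which count RNA molecules, were summed per library over nuclei of each class, and levels are given as CPM, the UMIs of a gene per 1000000 UMIs of that class in that library.

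All animals were rd10 mice of the strain B6.CXB1-Pde6b-rd10/J, which carry a missense mutation in the rod phosphodiesterase gene Pde6b and lose their photoreceptors. One group of 3 libraries (replicates 1, 2 and 6) came from retinas given saline, and the other group of 3 (replicates 4, 5 and 10) from retinas given 20 ng of recombinant IL-27, an anti-inflammatory cytokine. The injection was made into the vitreous at postnatal day 18, and retinas were frozen at postnatal day 20. Both groups carried the mutation and were injected, so the comparison shows IL-27 against vehicle within a degenerating retina, and no healthy retina was compared. The labels do not tie libraries to single animals, so p-values measure only the spread between libraries.

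Retinoic acid is made from vitamin A in 2 steps. Retinol is first oxidized to retinaldehyde by enzymes such as Rdh10, and retinaldehyde is then oxidized to retinoic acid by the Aldh1a enzymes. Enzymes of the Cyp26 family break retinoic acid down, Crabp proteins carry it in the cytoplasm, and dimers of a retinoic acid receptor (Rar) with a retinoid X receptor (Rxr) bind DNA and switch target genes on when the ligand arrives. In the embryonic eye Aldh1a1 marks the dorsal retina and Aldh1a3 the ventral retina, and Cyp26 enzymes lie between them. Rarb and Cyp26a1 are themselves well-known targets of the receptors.

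The promoters of Rarb and Cyp26a1 are shown because each holds the motif that receptor dimers recognize. The motif was searched as 2 half-sites, each AGGTCA or AGTTCA or GGGTCA or GGTTCA, in the same direction with 1, 2 or 5 bases between them, on both strands. RefSeq windows (build GRCm38.p6) from 250 bases before to 50 bases after a start were found for 8 of the 10 genes, 13 windows in all. Repeats spaced by 5 bases were found in 1 Rarb window and 1 Cyp26a1 window, and the other windows of the genes held none at any of the 3 spacings. Among all 32851 windows, 32 (0.0974%) held the repeat with 5 bases between, 88 (0.268%) that with 2 and 73 (0.222%) that with 1. Capitals mark the half-sites in these windows, written on the strand of the gene, 5′ to 3′.

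Rarb (chr14:16575427-16575726, minus strand): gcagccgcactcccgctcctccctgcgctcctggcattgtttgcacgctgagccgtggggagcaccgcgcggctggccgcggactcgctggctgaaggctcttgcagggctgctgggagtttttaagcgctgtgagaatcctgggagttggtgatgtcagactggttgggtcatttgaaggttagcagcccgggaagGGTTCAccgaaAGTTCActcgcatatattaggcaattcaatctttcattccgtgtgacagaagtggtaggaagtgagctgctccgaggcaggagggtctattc

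Cyp26a1 (chr19:37697558-37697857, plus strand): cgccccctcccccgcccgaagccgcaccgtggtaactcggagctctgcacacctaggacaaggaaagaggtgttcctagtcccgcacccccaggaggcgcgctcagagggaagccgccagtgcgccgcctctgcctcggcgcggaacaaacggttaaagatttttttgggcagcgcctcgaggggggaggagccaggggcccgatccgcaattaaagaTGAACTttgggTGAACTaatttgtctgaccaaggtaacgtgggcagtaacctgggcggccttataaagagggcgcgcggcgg

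The Rarb repeat read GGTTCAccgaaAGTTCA on the strand of the gene and lay 53 to 37 bases before the start (chr14:16575513-16575529), at a start within the gene model, which runs over chr14:16430839-16819156. The Cyp26a1 repeat lay 32 to 16 bases before the start (chr19:37697776-37697792) and read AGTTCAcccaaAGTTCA on the opposite strand. A match describes letters only, and binding was not measured.

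The libraries held 8968 to 9965 barcodes and 36678332 to 48260748 UMIs each, and pairs of libraries shared 18 to 30 barcode sequences. After filters and removal of doublets, 52243 nuclei remained, with a median of 2782 to 3788 UMIs per library. Names such as rods stand for rod-like nuclei by their markers, and none of the 10 genes was used to build the clusters. Muller glia comprised 4766 nuclei, in which the 10 Muller markers summed to 6136 to 7455 CPM per library. A separate cluster of 689 nuclei, called here the Fbln1 cluster after its leading gene, held 8 of 10 Muller markers and 5 of 7 ciliary epithelium markers and was given no cell type name. It was kept apart from the Muller glia class because it had Fbln1, Frmpd4, Reln and Csmd3. The authors report these genes for their saline-specific Muller subpopulation in the same data. The Fbln1 cluster contained 234, 223 and 110 nuclei of the saline libraries and 12, 6 and 104 of the IL-27 libraries. IL-27 replicate 10 stood apart in its Muller states, which are named after genes among their leading genes. It gave 382 of 679 nuclei of the Prss56 state but 12 of 1306 of the Syt10 state and 7 of 262 of the Chst9 state.

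Each of the 10 genes was detected, from 39 UMIs of Aldh1a2 to 8477 UMIs of Rarb among the retained nuclei. Of the 4717 Aldh1a1 UMIs, 60.2% were in Muller glia. Muller glia also held 67.5% of the 243 Cyp26a1 UMIs, 43.1% of the 353 Cyp26b1 UMIs and 29.0% of the 8477 Rarb UMIs, while making up 9.12% of nuclei. The other genes peaked elsewhere, with the highest mean level of Rara in rods, of Rxra in microglia, of Crabp1 in amacrine cells (AC) with the glycine transporter gene Slc6a9 and of Aldh1a3 in the Fbln1 cluster.

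**Figure D1:**
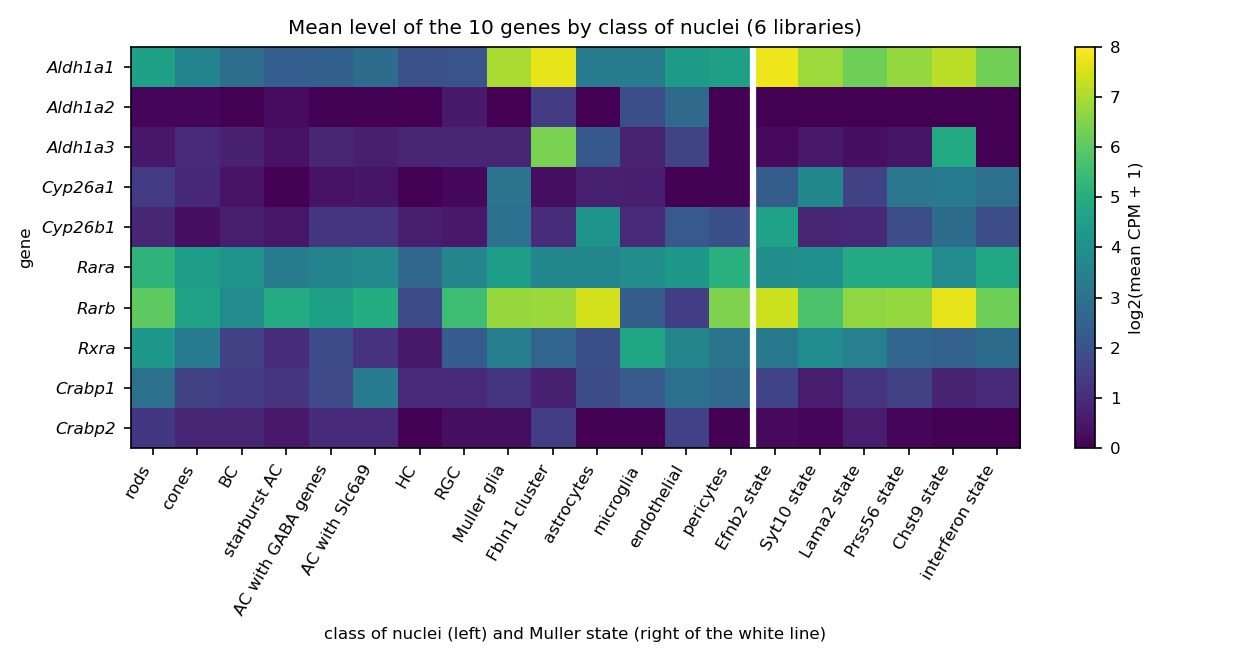
Mean level of each of the 10 genes (rows) in 14 classes of nuclei and 6 Muller states (columns), as log2(mean CPM + 1) over 6 libraries. Aldh1a1 is brightest in Muller glia, their states and the Fbln1 cluster, Rarb in astrocytes and Muller glia, and the Aldh1a3 value of the Chst9 state includes a library with few nuclei.

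Aldh1a1, which oxidizes retinaldehyde to retinoic acid (chr19:20492715-20643465, plus strand), was found mainly in Muller glia. Its level there was 116, 135 and 93.3 CPM in saline replicates 1, 2 and 6 and 160, 138 and 115 CPM in IL-27 replicates 4, 5 and 10, a mean of 126 ± 23.2 (SD, n = 6). The Fbln1 cluster reached 138, 164 and 170 CPM in saline and 401, 208 and 155 CPM in IL-27, higher than Muller glia in each of the 6 libraries, although IL-27 replicates 4 and 5 rested on 12 and 6 nuclei before the filter on depth. Rods followed at 22.8 ± 4.10 CPM, and the ranges of Muller glia and rods did not overlap.

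Outside Muller glia and the Fbln1 cluster, Aldh1a1 was compared with Muller marker genes. In each class its level, as a percentage of that in Muller glia, was set beside the median percentage of the 10 Muller marker genes. Rods had 16.7% for Aldh1a1 against 21.1% for the markers, cones 8.73% against 11.4%, bipolar cells (BC) 4.85% against 6.90% and ganglion cells (RGC) 2.57% against 3.29%. Astrocytes had 9.37% against 59.2%, microglia 7.46% against 15.7% and AC with Slc6a9 4.54% against 9.36%, well below the markers. Pericytes, with 6 Aldh1a1 UMIs in all, were the exception, with 13.96% against 12.3%. Single markers spread widely, from 4.67% to 122% in rods. They reached 348% in astrocytes and 264% in microglia, so the median is a rough guide. At or below it, expression in a class and RNA carried over from Muller glia could not be told apart. Carried-over RNA was not measured.

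Aldh1a1 was also uneven among Muller states, groups of nuclei found by clustering Muller glia again. Each was named after a gene among its leading genes, not always the first, or after its interferon markers. The state named after Efnb2, an ephrin of the dorsal retina, had 240, 214 and 190 CPM in saline and 227, 248 and 203 CPM in IL-27, a mean of 220 ± 22.2. Its range lay above those of the Syt10, Prss56, interferon and Lama2 states, and it was above the Chst9 state in 5 of 6 libraries. The Chst9 state had 143 ± 63.8 CPM and the Syt10 state 114 ± 40.7 CPM, with overlapping ranges. The Prss56 state had 105 ± 17.1 CPM, a state with 6 of 6 interferon response markers 78.2 ± 29.8 CPM and the state led by Lama2 74.2 ± 22.4 CPM. Without IL-27 replicate 10, which gave 7 Chst9 and 12 Syt10 nuclei, the Efnb2 state had 224 ± 23.0 CPM and the Chst9 state 161 ± 51.3 CPM (n = 5). The Syt10 state then had 120 ± 41.6 CPM and the Lama2 state 66.7 ± 14.1 CPM.

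Aldh1a2 and Aldh1a3, the other enzymes that make retinoic acid, were rare. Aldh1a2 (chr9:71215789-71296243, plus strand) was not seen in Muller glia, where 0 of 4515 summed nuclei had a UMI, which allows a share of up to 0.0664% of nuclei with a UMI and sets no limit on nuclei that express the gene. Its UMIs were scattered, with 11 in microglia, 11 in RGC and 5 in the Fbln1 cluster.

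Aldh1a3 (chr7:66390890-66427517, minus strand) had 267 UMIs among the retained nuclei, and 116 of them (43.4%) were in the Fbln1 cluster, which made up 1.32% of nuclei. The cluster had 41.5, 44.6 and 43.8 CPM in the saline libraries. In IL-27 replicate 10, with 104 nuclei, the level was 21.3 CPM, while replicate 4 reached 343 CPM on few nuclei. Replicate 5 had 2 UMIs in the cluster, and 0 once the nuclei outside the depth limits were left out, as they were for these levels. Muller glia had 0.77 CPM and AC 0.66 CPM.

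Summed over whole libraries, Aldh1a3 was lower in each IL-27 library than in any saline library. It had 70, 63 and 47 UMIs in saline and 30, 26 and 31 UMIs in IL-27, or 1.68, 1.70 and 1.17 CPM against 0.850, 0.710 and 0.959 CPM, so the groups did not overlap. Of all genes with at least 100 UMIs, 3.62% lay lower in this way. The Fbln1 cluster gave 40, 37 and 18 of the UMIs in saline and 12, 2 and 7 in IL-27. With that cluster left out, the levels were 0.736, 0.721 and 0.731 CPM in saline and 0.510, 0.656 and 0.751 CPM in IL-27, and the groups overlapped. In a sum over a whole library, fewer nuclei of a class and less RNA per nucleus cannot be told apart, and the number of Fbln1 nuclei moved with the sum.

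**Figure D2:**
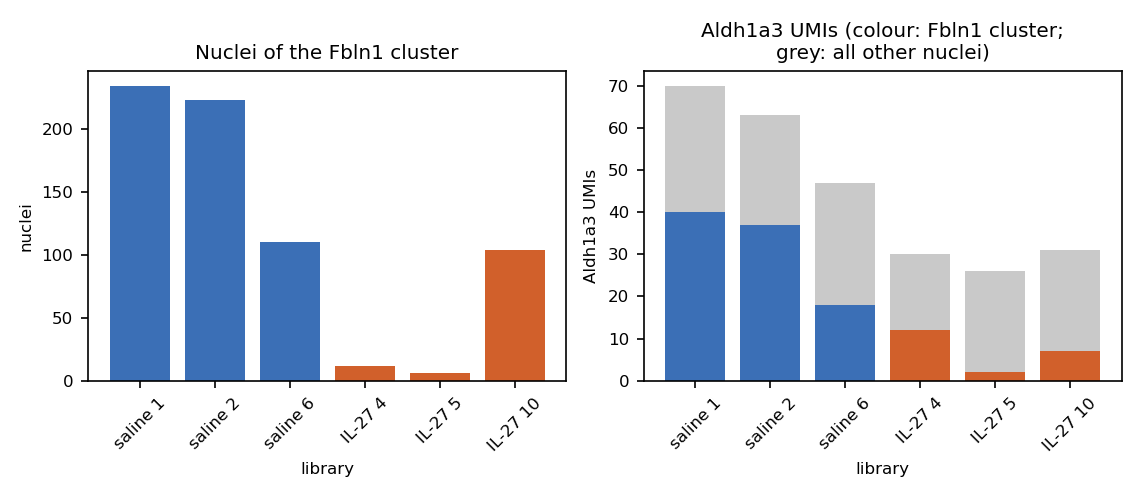
Nuclei of the Fbln1 cluster per library (left) and Aldh1a3 UMIs per library (right), with UMIs of that cluster in blue for saline and orange for IL-27 and those of all other nuclei in grey. Saline libraries had 47 to 70 Aldh1a3 UMIs and IL-27 libraries 26 to 31, and the coloured part falls from 18 to 40 down to 2 to 12.

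The Cyp26 enzymes, which oxidize retinoic acid to inactive products, gave few UMIs and differed in their pattern among glia. Cyp26a1 (chr19:37697798-37701536, plus strand) had 5.06, 8.38 and 4.83 CPM in saline and 11.9, 9.31 and 5.20 CPM in IL-27 in Muller glia, a mean of 7.44 ± 2.88. Muller glia were above each other class in 6 of 6 libraries, followed by rods at 1.55 ± 1.60 CPM, which was 17.5% of the Muller level against 21.1% for the Muller markers. The Fbln1 cluster held 1 Cyp26a1 UMI among its 689 nuclei, in contrast to its high Aldh1a1. Among states, Syt10 had the highest mean at 12.3 ± 8.19 CPM, or 14.8 ± 6.19 CPM without IL-27 replicate 10 (n = 5), and its range overlapped those of its neighbours.

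Cyp26b1 (chr6:84571414-84593908, minus strand) followed the Efnb2 state. Its level in Muller glia was 5.52, 7.57 and 5.13 CPM in saline and 8.002, 6.92 and 6.58 CPM in IL-27, with a mean of 6.62 ± 1.12. Within the Efnb2 state it was 20.5, 22.4 and 20.6 CPM in saline and 18.6, 26.9 and 32.8 CPM in IL-27, or 23.6 ± 5.29. That range did not overlap that of the next state, Chst9, at 6.10 CPM, and the Lama2 state had 3 UMIs in all. Astrocytes had the highest mean of any class, 16.8 ± 11.1 CPM, from 20 UMIs, with 0 UMIs in IL-27 replicate 10. Their range overlapped that of Muller glia.

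**Figure D3:**
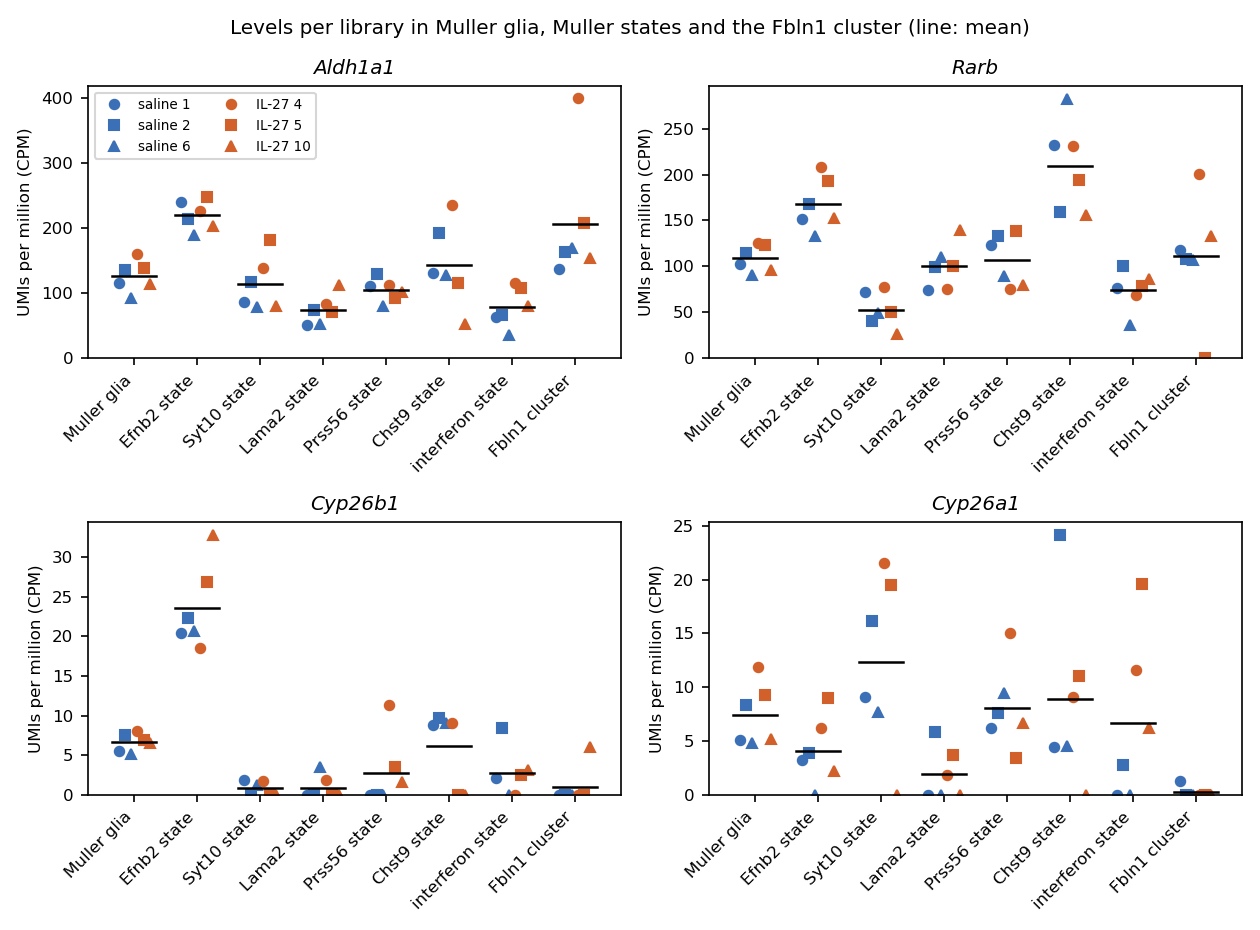
Level per library (CPM) of Aldh1a1, Rarb, Cyp26b1 and Cyp26a1 in Muller glia, 6 Muller states and the Fbln1 cluster, with saline in blue, IL-27 in orange and a line at the mean of 6 libraries. Among states the Efnb2 state is highest for Cyp26b1 in every library and for Aldh1a1 in 5 of 6, and Cyp26a1 is near 0 in the Fbln1 cluster.

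Because the Efnb2 state carried a dorsal gene, Muller nuclei were also sorted by position markers that include none of the 10 genes. Nuclei with more UMIs of Tbx5, Tbx3, Efnb2 and Efnb1 (dorsal) than of Vax2, Ephb2 and Ephb3 (ventral) numbered 966, and 1791 had the reverse. The ventral list rested mostly on Ephb2, with 3284 UMIs in Muller glia against 545 of Vax2 and 340 of Ephb3. Ephb2 was 141 ± 33.8 CPM in the Efnb2 state and 147 ± 44.1 CPM in Muller glia. Vax2 was 2.33 ± 2.45 and 24.3 ± 1.86 CPM. Each library gave 1 log2 ratio of dorsal over ventral, computed with 0.5 UMI added, and 6 genes with enough UMIs were compared by a two-sided exact permutation test. With 6 libraries the smallest possible p was 0.03125. Benjamini-Hochberg adjustment over the 6 genes turned it into 0.0625, given how many of them reached it, and no gene passed 0.05.

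Aldh1a1 had 201, 202 and 149 CPM in dorsal marker nuclei of the saline libraries and 183, 218 and 212 CPM in those of the IL-27 libraries. In ventral marker nuclei it had 93.7, 107 and 79.3 CPM in saline and 152, 106 and 84.0 CPM in IL-27. Dorsal was higher in 6 of 6 libraries, by a mean log2 ratio of 0.93 (SD 0.36, exact permutation p = 0.03125).

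Cyp26b1 showed the widest gap, 19.2 ± 4.92 CPM in dorsal against 3.36 ± 1.89 CPM in ventral marker nuclei. Its log2 ratio was 2.55 (SD 1.05), higher in 6 of 6 libraries (exact permutation p = 0.03125), and with counts thinned to 1000 UMIs per nucleus it was 2.08, higher in 5 of 6 (exact permutation p = 0.0938). Rara was on the other side, 17.2 ± 5.20 CPM in dorsal and 24.0 ± 2.94 CPM in ventral marker nuclei, with a log2 ratio of -0.49 (SD 0.33), lower in 6 of 6 libraries (exact permutation p = 0.03125). This count for Rara held with doublets kept, but not under the other rules tried. With nuclei sorted by Tbx5 against Vax2 the Rara ratio was -0.34, above 0 in 2 libraries (exact permutation p = 0.344), and with thinned counts it was -0.30, above 0 in 1 library (exact permutation p = 0.281). With lists 2 UMIs apart it was -0.67, above 0 in 1 library (exact permutation p = 0.0625).

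Rarb had a log2 ratio of 0.34 (SD 0.37), higher in 5 of 6 libraries, with exact permutation p = 0.125 and 0.188 after adjustment. Nuclei with at least 2 more UMIs of one list gave Rarb a log2 ratio of 0.61, Tbx5 against Vax2 0.67 and thinned counts 0.56. Under each of these rules it was higher in 6 of 6 libraries (exact permutation p = 0.03125). With doublets kept it was 0.34, higher in 5 of 6 (exact permutation p = 0.0625). Cyp26a1 (-0.19, SD 1.27, exact permutation p = 0.75) and Rxra (0.00, SD 0.73, exact permutation p = 1) had ratios on both sides of 0. By group, the log2 ratio of Aldh1a1 was 0.98 ± 0.11 in saline and 0.88 ± 0.55 in IL-27 (SD, n = 3), and that of Cyp26b1 was 2.51 ± 0.84 and 2.59 ± 1.44. The difference between the groups was not tested.

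**Figure D4:**
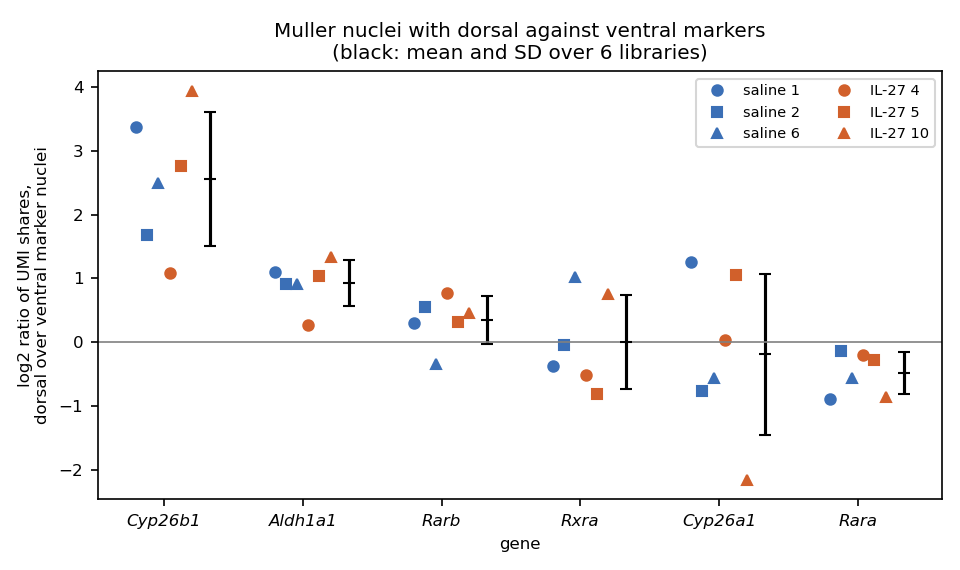
Log2 ratio of the UMI share in Muller nuclei with dorsal over ventral markers, 1 point per library, for 6 genes, with saline in blue, IL-27 in orange and the mean and SD in black. All 6 points of Cyp26b1 and Aldh1a1 lie above 0 and all 6 of Rara below 0.

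Among receptors, Rarb (chr14:16430839-16819156, minus strand) had its highest means in glia. Astrocytes had 139, 136 and 191 CPM in saline and 195, 243 and 150 CPM in IL-27, a mean of 176 ± 41.8. Muller glia had 102, 114 and 90.9 CPM in saline and 125, 123 and 95.9 CPM in IL-27, a mean of 109 ± 14.3, below astrocytes in 6 of 6 libraries. The Fbln1 cluster (111 ± 64.6 CPM) and pericytes (86.0 ± 49.4 CPM, 22 UMIs) overlapped both.

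In neurons, Rarb was 63.6 ± 13.4 CPM in rods, 44.6 ± 6.91 in RGC, 25.2 ± 2.48 in AC and 13.6 ± 1.41 in BC. RGC were above AC and BC in 6 of 6 libraries. As a percentage of Muller glia, RGC had 40.3% for Rarb against 3.29% for the Muller markers, rods 58.1% against 21.1%, and AC with Slc6a9 25.9% against 9.36%. The Rarb value was above that of every marker in RGC (highest 14.4%), but within the range of the markers in rods (highest 122%) and in AC with Slc6a9 (highest 28.8%). Horizontal cells had 2.51% against 3.14%, microglia 6.59% against 15.7% and endothelial cells 3.85% against 15.8%. Rarb thus lay below the marker median in those classes.

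Rarb also separated Muller states and amacrine clusters. The Chst9 state had 209 ± 48.8 CPM and the Efnb2 state 168 ± 28.1 CPM, with overlapping ranges. Without IL-27 replicate 10, which gave 7 Chst9 nuclei, they had 220 ± 46.3 and 171 ± 30.3 CPM (n = 5). The other states ran from 106 CPM (Prss56) down to 52.8 CPM (Syt10). Of 14 amacrine clusters, 1 in the Slc6a9 group (1084 nuclei, with Dab1, Kcnh1 and Tll1 among its leading genes) had 51.0 ± 3.70 CPM, from 44.7 to 53.8 CPM per library. The other clusters had means of 9.17 to 33.9 CPM, and their ranges overlapped it in 2 clusters, which reached 51.5 and 59.2 CPM in 1 library each.

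The other receptors, Rara and Rxra, had their highest levels outside Muller glia. Rara (chr11:98927818-98974942, plus strand) was 35.9 ± 2.60 CPM in rods, 21.2 ± 5.29 in cones, 20.9 ± 2.42 in Muller glia and 15.8 ± 1.61 in BC. Rods were above cones, Muller glia and BC in 6 of 6 libraries, while pericytes (9 UMIs) overlapped them. Among Muller states Rara was 28.7 ± 7.78 CPM in the Lama2 state and 14.6 ± 3.58 CPM in the Efnb2 state, lower in the Efnb2 state in 5 of 6 libraries.

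Rxra (chr2:27676440-27762957, plus strand), the partner of the Rar receptors, had 23.3, 39.4 and 22.6 CPM in saline and 19.9, 28.0 and 20.5 CPM in IL-27 in microglia, a mean of 25.6 ± 7.32. Microglia were above rods (18.2 ± 2.44 CPM) in 6 of 6 libraries, although the ranges overlapped. Muller glia had 9.68 ± 2.50 CPM, cones 8.75 ± 2.48 CPM and AC 1.91 CPM.

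Of the carriers, Crabp1 had its highest mean in amacrine cells. Crabp1 (chr9:54764748-54773110, plus strand) had 9.69, 9.98 and 8.05 CPM in saline and 10.2, 4.03 and 11.004 CPM in IL-27 in AC with Slc6a9, a mean of 8.82 ± 2.54. Rods came next at 6.73 ± 3.47 CPM, with a range of 3.71 to 12.3 CPM that overlapped, and AC with Slc6a9 were higher in 5 of 6 libraries. Endothelial cells (6.54 ± 8.99 CPM) rested on 4 UMIs, with AC with Slc6a9 higher in 3 of 6 libraries. Of the 350 Crabp1 UMIs in 14 amacrine clusters, 192 (54.9%) were in 2 clusters that held 22.1% of the nuclei. These 2 clusters both had Ebf3, a transcription factor gene, among their leading genes. The cluster led by Gm12128 and Lrfn5 had 17.2 ± 4.94 CPM and that led by Esr1 and Spink13 had 9.59 ± 3.38 CPM, against means of 0 to 6.402 CPM in the others. IL-27 replicate 5 was the lowest library in both, at 7.89 and 5.09 CPM. Crabp2 (chr3:87948666-87953376, plus strand), with 180 UMIs, had no class mean above 1.93 CPM.

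IL-27 was then compared with saline in each class by edgeR's quasi-likelihood test, adjusted over all genes of the class. The filter on low counts was passed by 8 of the 10 genes, giving 54 tests in 15 classes, subclasses and states. Aldh1a2 and Aldh1a3 passed in none. edgeR called 0 of the 54, with a smallest adjusted p of 0.871, and DESeq2 called 0 as well. At an unadjusted p under 0.05, edgeR had 3 of the 54 (3.58% of all tests in these fits). Over all genes, edgeR called 0.0369% in Muller glia, 0.0524% in the Efnb2 state, 0.0361% in the interferon state, 0.04% in the Prss56 state and 0% in the Lama2 state. It called 0.00593% in AC, 0.00648% in AC with GABA genes, 0.00715% in AC with Slc6a9, 0.00753% in rods, 0.111% in pericytes and 0% in each other class or subclass. Without the filter on low counts it called 0.484% of genes in Muller glia and 0.216% in the Efnb2 state, with none of the 10 genes among them. The log2FC (IL-27 over saline) had a median of 0.08 and ran from -0.38 to 0.75, with 32 tests higher and 22 lower. Subclasses and states share nuclei with AC or Muller glia, so these tests are not independent. Over the 33 tests of classes alone, 20 were higher and 13 lower.

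In Muller glia 6 genes were tested, and all 6 had a log2FC above 0 with none past the test. Their median was 0.26, and that of all 13537 genes tested was 0.00. The groups overlapped for each of the 6, while 4.93% of all genes lay with all IL-27 libraries above saline. The values were 0.27 (SE 0.16) for Aldh1a1, 0.55 (SE 0.33) for Cyp26a1, 0.24 (SE 0.26) for Cyp26b1, 0.25 (SE 0.15) for Rara, 0.17 (SE 0.14) for Rarb and 0.34 (SE 0.27) for Rxra, with edgeR adjusted p of 0.967 to 0.978.

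Rarb had a log2FC above 0 in 11 of 14 tests, which include subclasses and states of the same nuclei. In RGC it had 39.5, 38.1 and 37.7 CPM in saline and 53.5, 48.7 and 49.8 CPM in IL-27, so each IL-27 library was above each saline library. Of all genes in RGC, 3.2% lay that way. The log2FC was 0.42 (SE 0.11), with an unadjusted p of 0.00212 and an edgeR adjusted p of 0.99995.

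In BC the same receptor had 12.3, 12.6 and 12.2 CPM in saline and 14.3, 15.5 and 14.8 CPM in IL-27, again without overlap, as for 3.2% of genes in BC. The edgeR log2FC was 0.28 (SE 0.14), with an adjusted p of 0.998. Rara in BC did not overlap either, with a log2FC of 0.24 (SE 0.13).

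In the Efnb2 state Rarb had 152, 167 and 133 CPM in saline and 208, 193 and 153 CPM in IL-27, and the groups overlapped through IL-27 replicate 10. The edgeR log2FC was 0.33 (SE 0.15), with an unadjusted p of 0.0404 and an adjusted p of 0.871. Aldh1a1 in the interferon state had 62.9, 67.0 and 35.7 CPM in saline and 116, 108 and 80.3 CPM in IL-27, without overlap, as for 3.77% of genes there. It rested on 147 UMIs in all, 4 of them in saline replicate 6, and the edgeR log2FC of 0.75 (SE 0.30) had an unadjusted p of 0.0201 and an adjusted p of 0.999.

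Rara in the Lama2 state had 26.1, 27.2 and 15.97 CPM in saline and 31.4, 32.4 and 39.2 CPM in IL-27, without overlap, as for 4.61% of genes there. Its log2FC was 0.46 (SE 0.29). It rested on 124 UMIs, of which 117 remained without IL-27 replicate 10, which gave 38 nuclei before the filter on depth. Xist, which marks female animals, was among the leading genes of this state. In AC with Slc6a9, Rara lay below saline without overlap, as for 4.8% of genes there, at a log2FC of -0.33 (SE 0.18). Neither Rara difference passed the test. Over its 10 tests the log2FC of Rara was above 0 in 5, and that of Aldh1a1 was above 0 in 6 of 12. Both counts include subclasses and states of the same nuclei. That of Aldh1a1 also includes rods, cones, BC and RGC, where its level lay below the Muller marker median.

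Crabp1 had a log2FC below 0 in 4 of 5 tests, from -0.21 to 0.04, with AC and its subclasses among them. Crabp2 could be tested in AC, at 0.10 (SE 0.34).

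**Figure D5:**
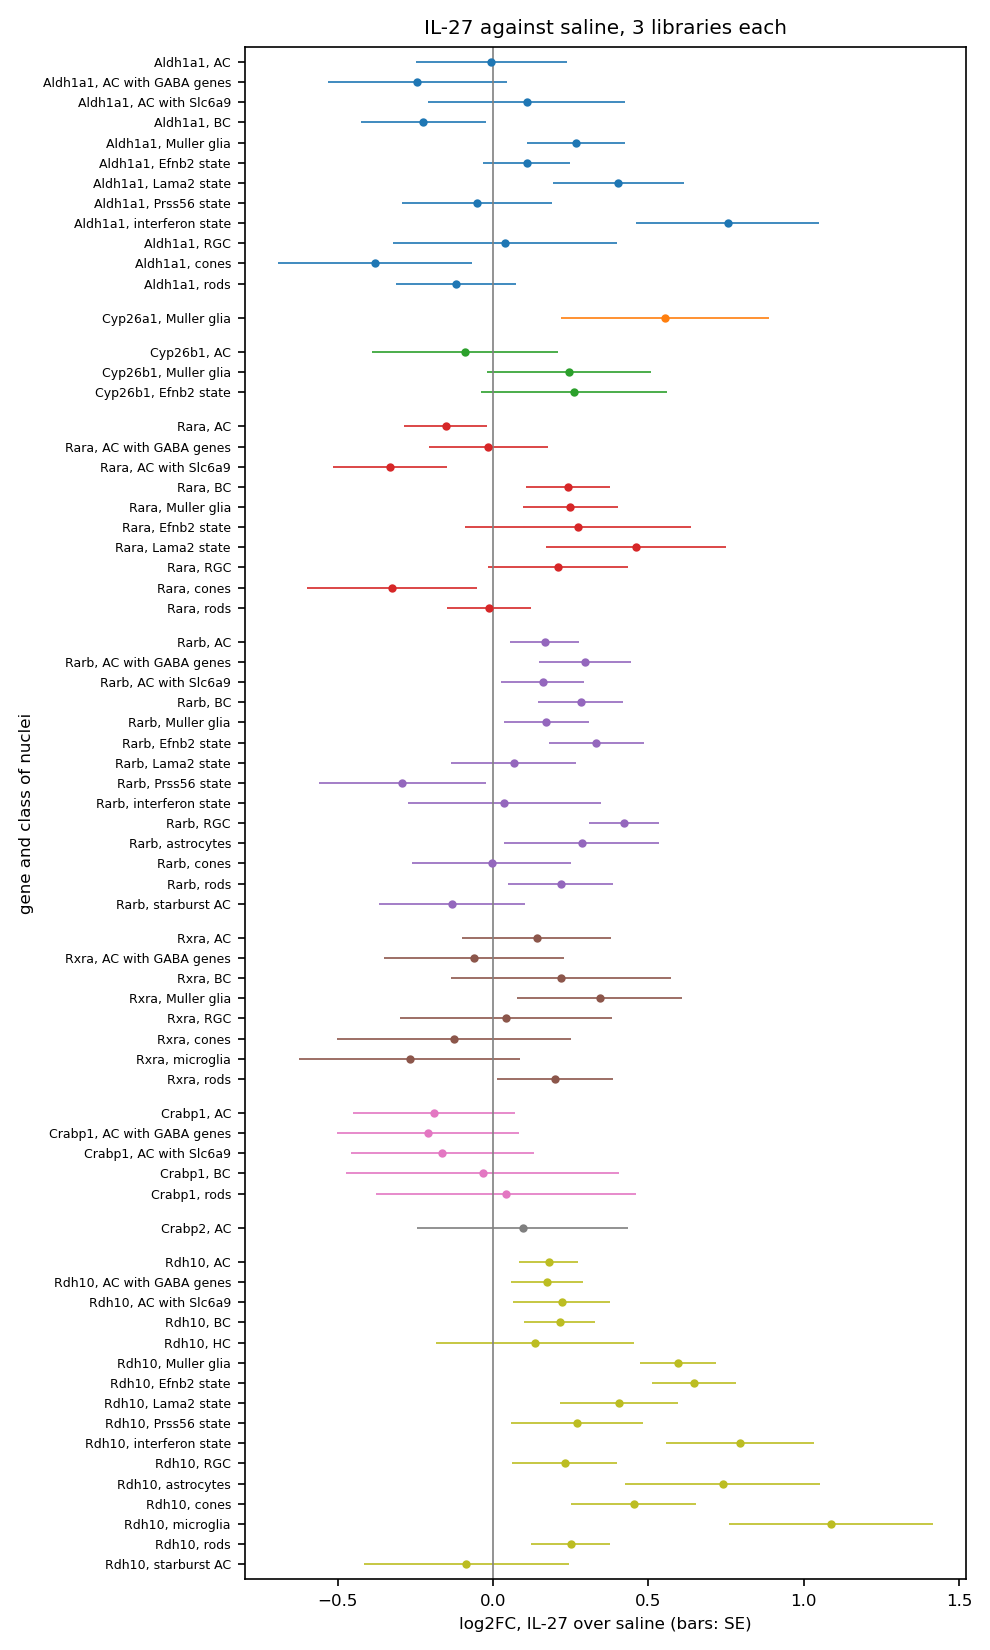
Log2FC of IL-27 over saline with its standard error for each gene and class, subclass or state that passed the filter, 54 tests of 8 genes and 16 of Rdh10. The genes fall on both sides of 0, from -0.38 to 0.75, while Rdh10 lies above 0 in 15 of 16. Subclasses and states share nuclei with their class, and all tests share the same libraries.

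Other genes of the pathway were read from a list of 24 genes covering retinol entry and oxidation, further receptors, co-regulators and induced genes. Of these, 18 could be tested somewhere, in 196 tests over 18 classes, subclasses and states. edgeR called 0 of the 196, with 11 at an unadjusted p under 0.05 (3.63% of all tests in the fits), and DESeq2 called 2, both of Rdh10. The log2FC was above 0 in 121 tests and below 0 in 75. Over the 120 tests of classes alone, it was above 0 in 76 and below 0 in 44. In Muller glia 17 were tested by edgeR, with 0 called and 2 at an unadjusted p under 0.05, 10 values above 0 and 7 below, and a median log2FC of 0.01.

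Rdh10, which oxidizes retinol to the retinaldehyde that Aldh1a1 uses, had a log2FC above 0 in 15 of 16 tests. Over classes alone, without the subclasses and states that share their nuclei, it was above 0 in 9 of 9. These classes came from the same libraries, so the 9 tests are not independent. RNA carried over from Muller glia into the other classes was not measured. In Muller glia Rdh10 had 183, 227 and 181 CPM in saline and 266, 326 and 298 CPM in IL-27. The groups did not overlap, as for 4.93% of genes there. The log2FC was 0.60 (SE 0.12), with an unadjusted p of 0.00036 and an edgeR adjusted p of 0.257, which does not pass. DESeq2 gave the same log2FC of 0.60 with an adjusted p of 0.0163, which passes, in a fit that called 0.262% of genes. In the Muller nuclei with more dorsal marker UMIs, edgeR gave a log2FC of 0.79 (SE 0.14) with an adjusted p of 0.0215, in a fit that called 0.106% of genes. In those with more ventral marker UMIs the edgeR log2FC was 0.49 (SE 0.15) with an adjusted p of 0.99996. The difference between the 2 was not tested.

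The same gene was without overlap in the Efnb2 state, at 246, 237 and 214 CPM in saline and 303, 383 and 391 CPM in IL-27, as for 4.45% of genes there. The edgeR log2FC there was 0.65 (SE 0.14), with an adjusted p of 0.0704. Without IL-27 replicate 10 it was 0.59 with an adjusted p of 0.0372, which passes. With any other single library left out Rdh10 did not pass there, at edgeR adjusted p of 0.0587 to 0.514. Microglia had 31.6, 15.3 and 20.1 CPM in saline and 39.9, 53.7 and 55.5 CPM in IL-27, also without overlap, as for 4.35% of genes there. Their log2FC was 1.09 (SE 0.33) with an edgeR adjusted p of 0.9996. These levels were well below those of Muller glia, which held 46.9% of the 11701 Rdh10 UMIs. RNA carried over from Muller glia into microglia was not measured.

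Dhrs3, which turns retinaldehyde back into retinol, had 17.7, 20.0 and 17.8 CPM in saline and 21.04, 31.4 and 28.7 CPM in IL-27 in Muller glia. The groups did not overlap, as for 4.93% of genes there. The log2FC of Dhrs3 was 0.55 (SE 0.17), with an edgeR adjusted p of 0.869.

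The genes with the most similar pattern over the 14 classes were named by Pearson correlation of mean log2(CPM + 1), as a description, since the classes share libraries and free RNA. Those of Aldh1a1 were Il33 (0.976), Dapl1 (0.965) and 2900052N01Rik (0.952). Those of Cyp26a1 were Ehf (0.962), Cyp4f14 (0.952) and Esrp1 (0.944), and those of Aldh1a3 were Gm15482 (0.961), Mfap4 (0.961) and Bmp2 (0.951). Rarb was closest to Aldh6a1 (0.900), Cfap100 (0.889) and Cystm1 (0.872), Cyp26b1 to Adgrg6 (0.912), Mmp19 (0.911) and Hsd17b2 (0.909), and Rxra to Tmem50a (0.926), Rhbdf2 (0.925) and Stk17b (0.905). Rara was closest to Cwc25 (0.948), Lmbr1l (0.944) and Zfp597 (0.926), Crabp1 to Gpat4 (0.837), Fmr1 (0.828) and Borcs7 (0.827), and Crabp2 to Prss8 (0.888), Zfp553 (0.853) and Arxes2 (0.849).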

How the data were processed

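The deposited values are whole UMI counts per gene and barcode for 6 single-nucleus libraries, without normalization. The authors made them with Cell Ranger (9.0.1 in the processing notes, 8.0.1 in the file headers) on a 10x mouse reference whose build is not given in the sources used here.

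A barcode was kept if it held over 500 UMIs and 200 or more genes, with mitochondrial counts below 5%. Scrublet in scanpy 1.11.5 removed doublets per library at an expected rate of 8%. Louvain clustering (igraph 0.11.9, resolution 0.25, seed 20) used 2000 variable genes, 25 components and 20 neighbours, without integration and without the 10 genes or the 25 further pathway genes. Muller glia were clustered again at a resolution of 0.5. Clusters were named where at least 3 markers, and at least 35% of a list, were detected in at least 10% of nuclei. Left unnamed were 2017 nuclei, and 153 were mixed.

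UMIs were summed per library and class, without nuclei whose log2 total lay further than 2 median absolute deviations from the class median, and classes with under 10 nuclei in any library were not tested. edgeR 4.0.16 (quasi-likelihood, TMM, filterByExpr at 10 counts) in R 4.3.3 compared 3 against 3 libraries, with Benjamini-Hochberg adjustment per class and a threshold of 0.05. Fits were tested on simulated data. Genes named are the 10, the pathway list and the 3 most similar genes of each with at least 100 UMIs. In the pathway list, 1 gene is not reported here. The 10 genes, lists and tests were chosen with earlier results of these data known.

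Gene positions are from GENCODE M21 on GRCm38, in which 99.6% of the gene IDs were found. Limits from counts cover counting error only. Alternatives were DESeq2 1.42.0, its size factors, other filters, doublets kept, all depths, a 1% mitochondrial limit, a resolution of 0.5, thinning to 1000 UMIs and each library left out.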

Additional observations from a re-analysis of the deposited data

How the results depend on the processing

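No paired analysis was possible because the saline and IL-27 libraries share no replicate number. None of the 10 genes was called between IL-27 and saline under any of 19 settings, with a smallest adjusted p of 0.380. For the pathway list over all classes and states, edgeR called 0 tests. DESeq2, and edgeR without the filter on low counts, each called 2, both of Rdh10, in Muller glia and in the Efnb2 state. The edgeR count was 0 to 1 with each library left out in turn, and without IL-27 replicate 10 it was 1, Rdh10 in the Efnb2 state (log2FC 0.59, adjusted p 0.0372). In Muller nuclei with more dorsal marker UMIs, edgeR called 1, Rdh10, at 0.79 (adjusted p 0.0215). With more ventral marker UMIs, Rdh10 was at 0.49 and did not pass (edgeR adjusted p 0.99996). With Xist, which marks female animals, as a covariate added after the values were seen, edgeR called 0, and the adjusted p of Rdh10 in Muller glia was 0.113. The log2 dorsal over ventral ratio of Cyp26a1 changed sign with Tbx5 against Vax2 (0.66) and with thinning (0.0088), and ran from -0.48 to 0.20 with each library left out, above 0 if IL-27 replicate 10 was the one left out. That of Rxra, near 0, changed sign with lists 2 UMIs apart (-0.0059), with doublets kept (-0.15) and, over a range of -0.20 to 0.17 with each library left out, on leaving out saline replicate 6 (-0.20) or IL-27 replicate 10 (-0.15). The cause was not tested. Of the values of single genes recomputed, 277 kept direction and side of the threshold, 6 newly passed it and 7 changed sign. The class with the highest level changed for Crabp2 alone, to the Fbln1 cluster with all depths and to rods by the thinned share. Muller states were not clustered again for other resolutions or with doublets kept, and the stricter filter was not run where fewer than 500 genes remained. Depth limits Aldh1a2, Aldh1a3, Cyp26a1 and Crabp2 most, and with 5 libraries the position test cannot go below p = 0.0625 (exact permutation test).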

Other observations

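Other receptors, carriers and enzymes of the pathway list had their own patterns over the classes. Rxrg, a retinoid X receptor known from cones, had 52.9, 54.4 and 56.8 CPM in saline and 53.5, 76.2 and 66.5 CPM in IL-27 in cones, a mean of 60.05 ± 9.35 (SD, n = 6), and 16.5 ± 1.89 CPM in RGC. Stra6, a membrane receptor for retinol uptake, had 53.0 ± 25.6 CPM in endothelial cells, from 34 UMIs, and no more than 2.02 CPM as a mean in any other class. Fabp5, which carries retinoic acid to Ppard, had 251 ± 45.4 CPM in microglia. Cyp26c1, the third Cyp26 enzyme, had 3.64 ± 1.24 CPM in Muller glia, where 78 UMIs were summed, and Aldh1a7, a close relative of Aldh1a1, had 9.87 ± 2.36 CPM there. Aldh1a1 and Aldh1a7 are near-identical in parts, and the split of reads between them was not tested.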
